A study of Homo sapiens with 5 samples.

Results

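PRODH, its overlapping neighbour DGCR6 and 4 other genes of proline metabolism (ALDH4A1, PYCR1, PYCR3 and ALDH18A1) were followed through 5 long-read cDNA libraries of 2 human lung adenocarcinoma cell lines. They are 6 of the 61220 genes with a matched transcript. All transcripts that GENCODE release 44 assigns to them were summed per gene, which gave 58 transcripts, of which 34 had at least 1 read. PRODH was chosen by its ratio between the pure lines and its rise along the mixing series in these same libraries, so its levels are described and not tested. DGCR6 was chosen because it overlaps PRODH on the opposite strand, and the other genes were chosen for their place in the pathway.

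The libraries hold RNA of NCI-H1975 and HCC827, mixed by mass. Written as NCI-H1975 to HCC827, the pure libraries are 100:0 and 0:100, the even mixture is 50:50, and the 2 uneven mixtures are 75:25 and 25:75. Synthetic spike-in RNAs, sequins mixA in NCI-H1975 and sequins mixB in HCC827, were present, and poly(A) RNA was amplified as cDNA by PCR and read on 1 PromethION flow cell. The labels name no drug or genetic treatment. Each line was grown to near confluence and its cells were frozen before RNA extraction, and the RNA of each line was its replicate 1 only. Each ratio therefore has 1 library, and a difference between the lines has no biological replicate. The SE and p-value of a slope along the series rest on scatter about the trend in these libraries. In such mixtures, a transcript carried by more of the cells and one carried at more copies per cell cannot be told apart.

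Proline is oxidised in mitochondria by proline dehydrogenase, the product of PRODH, which passes electrons to the respiratory chain and yields pyrroline-5-carboxylate (P5C). ALDH4A1 oxidises P5C further to glutamate. In the opposite direction ALDH18A1, also called P5C synthase, makes P5C from glutamate, and the reductases PYCR1 (mitochondrial) and PYCR3 (cytosolic) reduce P5C to proline. PRODH is also known as a gene induced by p53. DGCR6 and PRODH lie in the 22q11.2 region deleted in DiGeorge syndrome.

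The libraries held 2932250 to 4058751 reads, and 98.31% to 98.74% of them were assigned to transcripts matched in GENCODE. Levels are CPM, the reads of a gene per 1000000 reads of the library after scaling by the TMM method. All 5 epithelial markers examined had at least 10 reads in some library, as did both lung adenocarcinoma markers, NKX2-1 and NAPSA. NAPSA had 7 reads in pure NCI-H1975 and 690 in pure HCC827, and NKX2-1 had 140 and 295. Of 6 markers of other cells, PTPRC and CD3E (leukocytes) had no read in any library, PECAM1 (endothelium) had 1 to 3 and COL3A1 (fibroblasts) at most 1, while CD68 and COL1A1 had more. A change along the series is the slope that the edgeR count model fitted to the reads, on a log2 scale. It is stated for a step from pure NCI-H1975 to pure HCC827, ± SE, and is not a line drawn through log2 CPM. RNA mixes linearly on the CPM scale, so log2 CPM bends along the series for a gene very low in either line. The fitted slope differed from the log2 ratio of the pure libraries, at 4.26 against 8.92 for PRODH and 3.30 against 4.62 for DGCR6. How much of this gap comes from the bend, and how much from the weight of each library in the fit, was not tested. The SE of such a gene includes the lack of fit to a straight trend. With library totals alone in place of TMM, the median slope over all genes tested was -0.44 in place of -0.03, and the directions below are relative to the TMM scale unless another is named.

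PRODH (ENSG00000100033.17) runs from 18936553 down to 18912777 on the minus strand of chromosome 22 (GRCh38). DGCR6 (ENSG00000183628.14) lies tail to tail with it on the plus strand, from 18906028 to 18914238. The overlap comes from a single DGCR6 transcript, DGCR6-207, annotated as a target of nonsense-mediated decay. Its last exon, 18911540 to 18914238 and 2699 bases long, contains the last exon of PRODH (18912777 to 18913362, 586 bases), the 75-base intron before it and the 89-base exon before that. DGCR6-207 shares 675 of its 3245 bases with PRODH exons, and the other 7 DGCR6 transcripts share none. The 2 sequences below show this junction on the minus strand, the strand of PRODH, with 15 coding bases of the next-to-last exon (18913438 to 18913452) in lower case. In the spliced form, capitals mark the first bases of the last exon (18913348 to 18913362), and this sequence is found in PRODH-205, PRODH-212 and PRODH-215. In the unspliced form, capitals mark the first bases of the intron (18913423 to 18913437), and its reverse complement lies within DGCR6-207. A read across this point therefore has letters that differ between the 2 genes, whereas a read that ends inside the last exon of PRODH is separated from DGCR6-207 by strand alone.
PRODH last junction, spliced: tcagcttcccgctggGCCAGGCCGGCTACC
PRODH last junction, unspliced: tcagcttcccgctggGTGAGTGGGGCCCTC

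**Figure D1:**
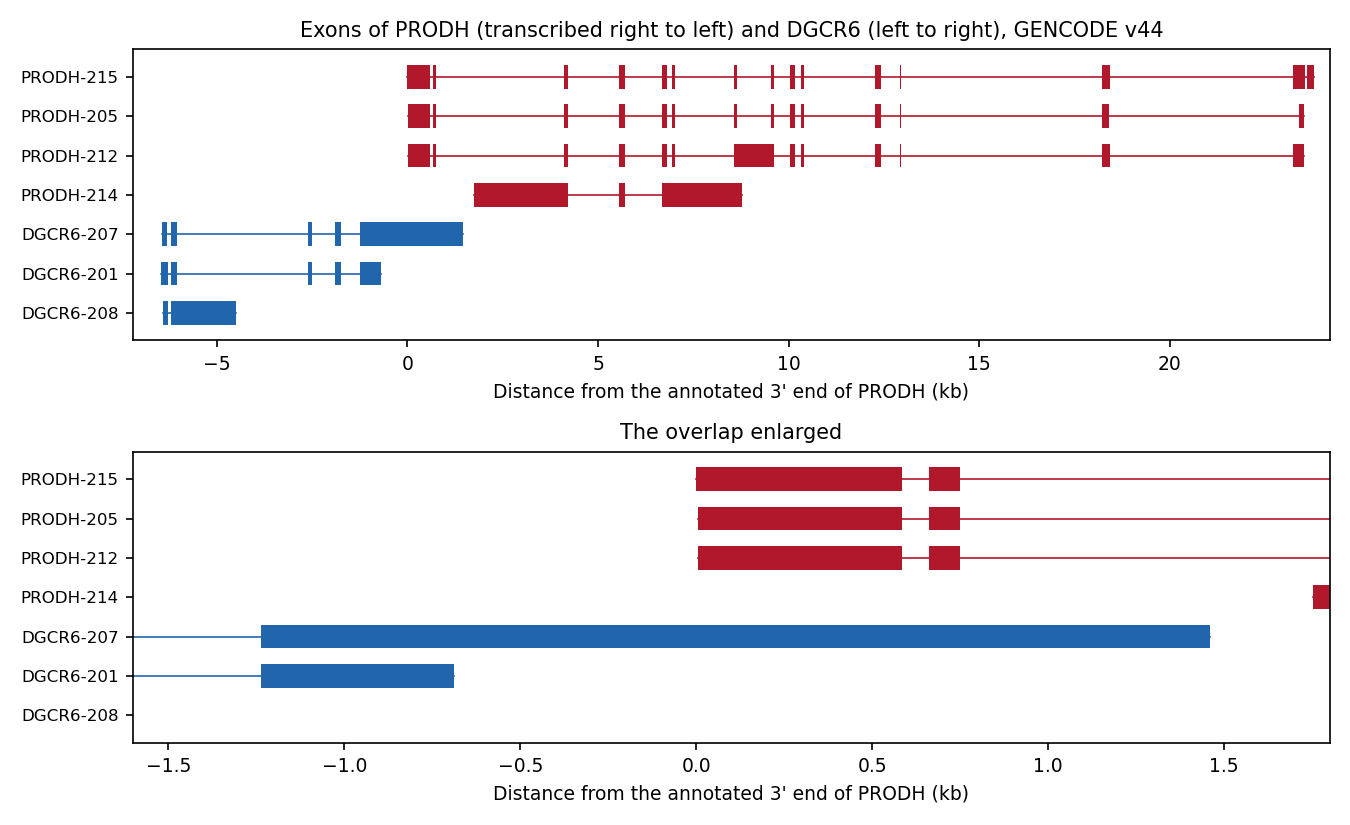
Exons (boxes) and introns (lines) of 4 PRODH transcripts (red, transcribed right to left) and 3 DGCR6 transcripts (blue, left to right), against distance in kb from the annotated 3′ end of PRODH, with the overlap enlarged below. The last exon of DGCR6-207 covers the last 2 exons of PRODH and the intron between them.

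PRODH was assigned 5, 814, 1193, 1293 and 1914 reads in the libraries from 100:0 to 0:100. These correspond to 1.47, 189, 306, 452 and 712 CPM. The pure NCI-H1975 library stood far below the other 4, and the level rose at every step. The ratio of pure HCC827 to pure NCI-H1975 was 483-fold, with a 95% interval of 206.7 to 1490 that covers counting error only. The slope was 4.26 ± 0.92, and 2.53 ± 0.15 without the 100:0 library, the only library at so low a level. These are the values by which the gene was chosen. Its mean CPM over the 5 libraries, a level not corrected for length, lay above that of 97.3% of the genes tested.

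Per kilobase of transcript, the order of the 6 genes differed between the lines. In pure HCC827, PRODH stood at 274 CPM per kb (95% counting interval 262 to 287), above DGCR6 at 99.8 (93.1 to 107) and PYCR1 at 78.8 (71.3 to 86.8). ALDH4A1 at 19.6 CPM per kb (16.5 to 23.1), ALDH18A1 at 11.8 (9.63 to 14.2) and PYCR3 at 5.68 (4.14 to 7.6) were lower. On this scale none of these 6 intervals overlapped. Without division by length, those of ALDH4A1 (43.45 to 61.03 CPM) and ALDH18A1 (32.27 to 47.67 CPM) did overlap. Whether long reads call for division by length was not tested. In pure NCI-H1975, PYCR1 led with 39.9 CPM per kb (35.1 to 45.0) and PRODH was last with 0.568 (0.184 to 1.32). Between them, the intervals of ALDH4A1 (14.9, 12.4 to 17.6) and ALDH18A1 (12.6, 10.6 to 14.8) overlapped, as did those of DGCR6 (4.05, 2.92 to 5.47) and PYCR3 (3.30, 2.27 to 4.63). Each gene was divided by a mean length weighted by reads of all 5 libraries, 3058 bases for DGCR6. The 3245-base DGCR6-207 took 19 of 42 DGCR6 reads in pure NCI-H1975 and 770 of 821 in pure HCC827. The DGCR6 value in pure NCI-H1975 would therefore be higher with a length from that library alone.

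**Figure D2:**
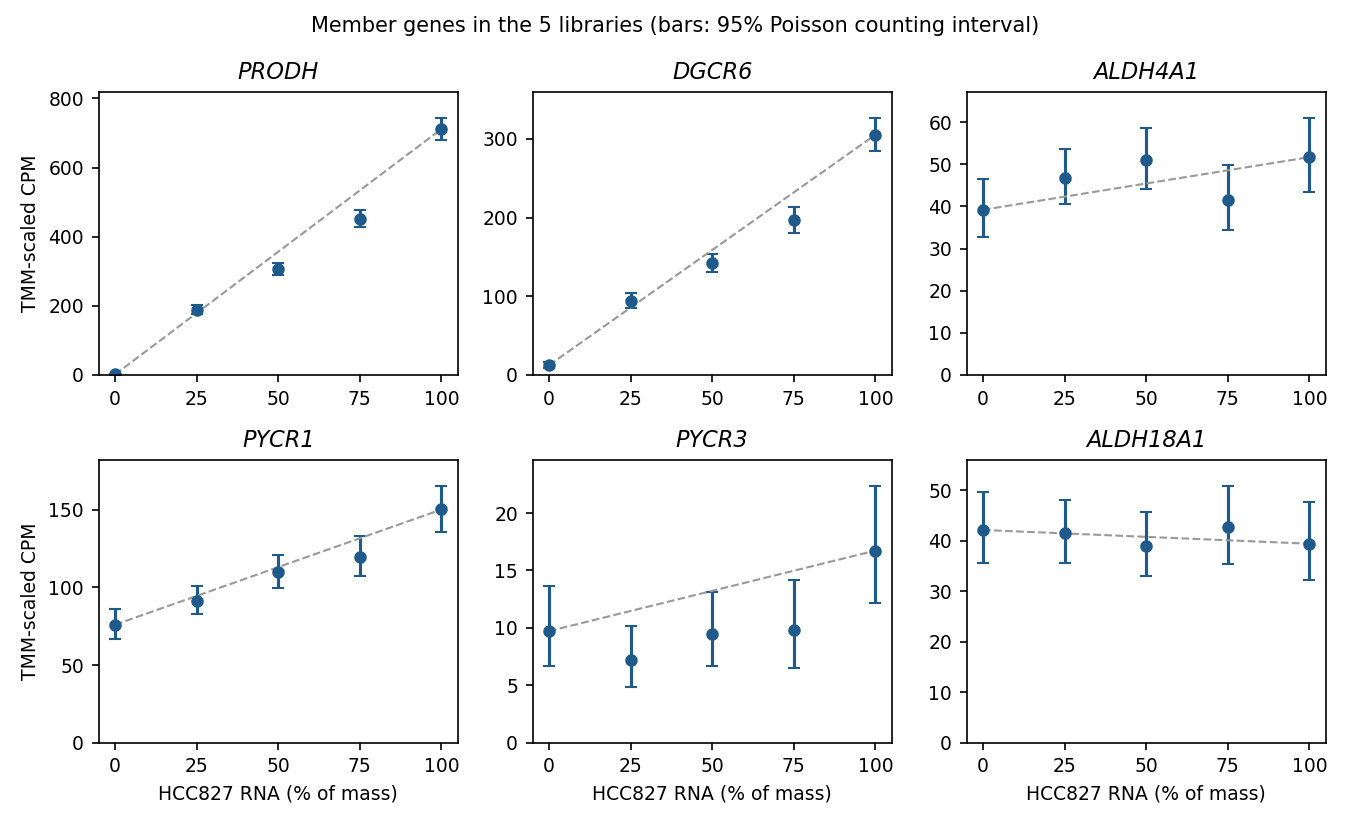
Scaled CPM (linear axis from 0, 1 panel a gene) of the 6 genes against the percentage of HCC827 RNA, 1 point a library, with exact 95% Poisson intervals as bars and a dashed line that joins the pure libraries. PRODH climbs from 1.47 to 712 CPM and DGCR6 from 12.4 to 305 CPM, while ALDH4A1 and ALDH18A1 stay between 39 and 52 CPM.

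DGCR6 rose with HCC827 as well. It had 42, 406, 553, 562 and 821 reads from 100:0 to 0:100, or 12.4, 94.1, 142, 196 and 305 CPM. Pure NCI-H1975 was again the low library, and the level rose at every step. The pure libraries differed 24.7-fold (95% counting interval 18.1 to 34.5), and the slope was 3.30 ± 0.46 (adjusted p = 9.83e-05, edgeR quasi-likelihood test with Benjamini-Hochberg adjustment over all genes tested). Among all 13492 genes tested, 45.8% passed this test, 23.5% as higher and 22.3% as lower with HCC827. Of the 5 genes tested here, DGCR6 and PYCR1 passed, both as higher, and ALDH4A1, PYCR3 and ALDH18A1 did not.

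Most of the DGCR6 reads belonged to the transcript that overlaps PRODH. DGCR6-207 took 19, 357, 502, 499 and 770 reads from 100:0 to 0:100, and the remaining 7 DGCR6 transcripts together took 23, 49, 51, 63 and 51. On the CPM scale DGCR6-207 rose at every step from 5.60 to 286, whereas the remaining transcripts stood at 6.78, 11.4, 13.1, 22.02 and 19.0. The ratio of the pure libraries was 51.2-fold for DGCR6-207 (32.5 to 85.4) and 2.80-fold for the rest (1.68 to 4.80), so the 2 counting intervals did not overlap. Summed over transcripts without a shared exon base, DGCR6 kept a slope of 1.49 ± 0.34 (adjusted p = 0.00306, edgeR quasi-likelihood test). Over its protein-coding transcripts, the slope was 1.31 ± 0.36 (adjusted p = 0.0101, same test).

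The protein-coding forms DGCR6-201 and DGCR6-202 together had 16, 31, 28, 17 and 15 reads. Their ratio between the pure libraries was 1.18 (95% counting interval 0.545 to 2.56), so no difference was detectable at this depth. The reads of DGCR6-208, a longer protein-coding form and the most read of the 3 in all, were 2, 9, 11, 26 and 23. DGCR6-206, annotated as a decay target that shares no base with PRODH, had 3, 7, 11, 11 and 11 reads, a ratio of 4.63 with an interval of 1.22 to 25.8. DGCR6-208 and DGCR6-206 thus had their fewest reads in pure NCI-H1975, as DGCR6-207 did.

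The share of DGCR6 reads on DGCR6-207 was 45.2% in pure NCI-H1975 (Wilson 95% interval 31.2% to 60.1%). In the 4 libraries with HCC827 it was 87.9%, 90.8%, 88.8% and 93.8%, the last with an interval of 91.9% to 95.2%. The library without HCC827 was thus the low one, and its interval lay below those of the other 4. The test of isoform usage along the series did not call DGCR6 (adjusted p = 1.0, edgeR diffSpliceDGE with Simes and Benjamini-Hochberg adjustment). Among all 7455 genes tested for usage, 0.416% were called.

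DGCR6-207 kept a near-constant ratio to PRODH wherever HCC827 RNA was present. For every 100 PRODH reads it had 43.9, 42.1, 38.6 and 40.2 reads in the 4 libraries from 75:25 to 0:100. As a share of DGCR6-207 and PRODH reads together, it made up 30.5% (27.9% to 33.2%), 29.6% (27.5% to 31.8%), 27.8% (25.8% to 30.0%) and 28.7% (27.0% to 30.4%), with overlapping Wilson intervals. In pure NCI-H1975 it was 79.2% (59.5% to 90.8%), from 19 reads of DGCR6-207 against 5 of PRODH. At 5.60 CPM of DGCR6-207 and 1.47 of PRODH, that line adds little of either to the mixtures. The 4 libraries with HCC827 carry the same HCC827 RNA, so their similar ratios follow from the mixing. Whether the counting used strand is not given in the sources used here. How many of the DGCR6-207 reads come from PRODH RNA, or the reverse, was not tested.

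**Figure D3:**
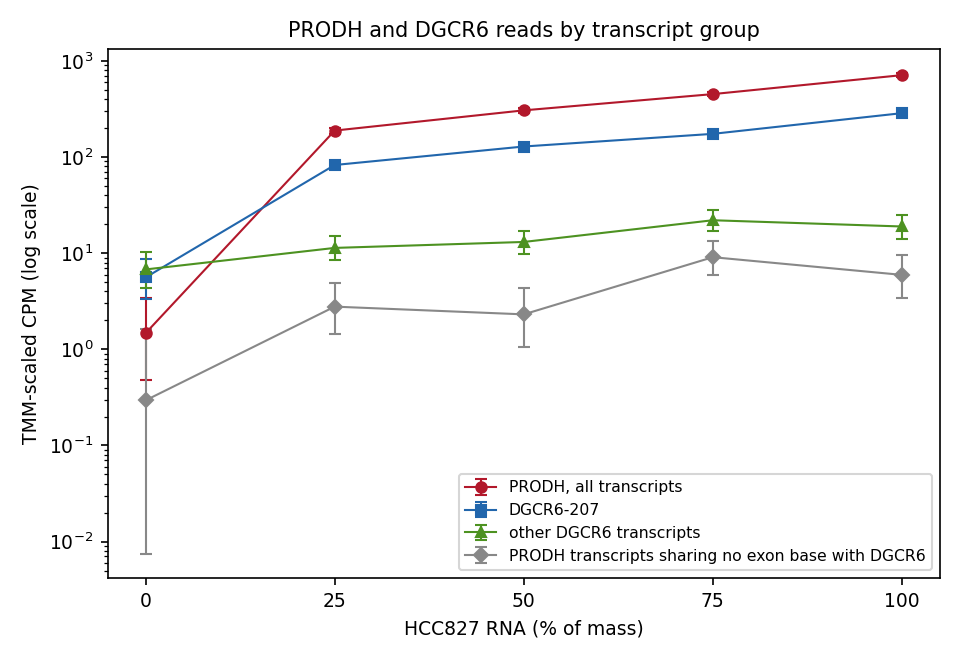
Scaled CPM (log axis) of all PRODH transcripts, of DGCR6-207, of the other DGCR6 transcripts, and of PRODH transcripts that share no exon base with DGCR6, against the percentage of HCC827 RNA, with exact 95% Poisson intervals as bars. In the 4 libraries with HCC827, DGCR6-207 lies at 82.7 to 286 CPM below PRODH at 189 to 712, while the other DGCR6 transcripts stay between 6.78 and 22.02 CPM.

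Nearly all PRODH reads also fell on transcripts that contain the shared end. The 8 PRODH transcripts with shared bases had 4, 802, 1184, 1267 and 1898 reads, which is 98.0% to 99.2% of PRODH reads in the libraries with HCC827. The 7 without any shared base had 1, 12, 9, 26 and 16 reads, or 0.295, 2.78, 2.31, 9.09 and 5.95 CPM. Their level was lowest in pure NCI-H1975 and did not rise at every step. Their slope was 2.91 ± 0.83, given with no test.

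Close copies of both genes lie further along 22q11.2, and reads could be divided between copies. DGCR6L, at 20314238 to 20320080, is 97.8% identical to DGCR6-201 over 1113 aligned bases. It stood at 34.8, 34.8, 34.7, 41.6 and 35.7 CPM, nearly level in all 5 libraries, and was not called (slope 0.14 ± 0.19, adjusted p = 0.572, edgeR quasi-likelihood test). PRODHLP, an unprocessed pseudogene 93% identical to PRODH-215 over 988 aligned bases, had 1, 1, 0, 1 and 0 reads. The levels of DGCR6-201 and DGCR6L in particular are uncertain for this reason.

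Of the catabolic pair, only PRODH differed widely between the lines. ALDH4A1 (ENSG00000159423.17, chromosome 1, 18871430 to 18902724, minus strand), the mitochondrial dehydrogenase that takes P5C on to glutamate, had 133, 202, 199, 119 and 139 reads. Its level was 39.2, 46.8, 51.1, 41.6 and 51.7 CPM, with no order along the series. It did not pass the test (slope 0.25 ± 0.20, adjusted p = 0.313, edgeR quasi-likelihood test), and with library totals alone its slope was of the opposite sign, -0.16 ± 0.19 (adjusted p = 0.519). The ratio of pure HCC827 to pure NCI-H1975 was 1.32 (95% counting interval 1.03 to 1.69).

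On the side of synthesis, ALDH18A1 was nearly level. ALDH18A1 (ENSG00000059573.9, chromosome 10, 95605941 to 95656711, minus strand) had 143, 179, 152, 122 and 106 reads, or 42.1, 41.5, 39.0, 42.6 and 39.4 CPM. The lowest and highest libraries lay within 4 CPM of each other. Its slope was -0.06 ± 0.18 (adjusted p = 0.799, edgeR quasi-likelihood test), and with library totals alone it passed as lower with HCC827 (slope -0.47 ± 0.18, adjusted p = 0.0392). The pure libraries had a ratio of 0.936 (0.721 to 1.21).

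PYCR1 rose with HCC827. PYCR1 (ENSG00000183010.17, chromosome 17, 81932384 to 81942412, minus strand), the mitochondrial reductase, had 258, 395, 429, 343 and 404 reads. Its level was 76.0, 91.5, 110, 120 and 150 CPM, higher at every step. The pure libraries differed 1.98-fold (1.69 to 2.32), with a slope of 0.94 ± 0.13 (adjusted p = 7.41e-05, edgeR quasi-likelihood test). With library totals alone, PYCR1 still passed, at a slope of 0.54 (adjusted p = 0.00348). Of the 5 genes other than PRODH, DGCR6 and PYCR1 followed the mixing order without exception. For DGCR6 this holds with DGCR6-207 counted in, and its other transcripts together did not follow the order. Over all genes tested, 28.5% followed it in either direction.

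PYCR3 (ENSG00000104524.14, chromosome 8, 143603210 to 143609773, minus strand), the cytosolic reductase, was the lowest of the 6 per kb in pure HCC827, with 33, 31, 37, 28 and 45 reads. Its level was 9.72, 7.18, 9.50, 9.79 and 16.7 CPM, and only pure HCC827 stood above the others. It did not pass the test (slope 0.87 ± 0.39, adjusted p = 0.0822, edgeR quasi-likelihood test). Without the 100:0 library it passed (1.53 ± 0.50, adjusted p = 0.0161), and without the 0:100 library its slope was 0.17 (adjusted p = 0.834), so the value rests on the pure libraries. PYCR3 overlaps TIGD5 on the opposite strand by 15 exon bases. PYCR1 shares exon bases with MYADML2 and a long noncoding RNA gene, neither of which had more than 2 reads in any library.

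No change in transcript makeup was called in the 6 genes (adjusted p = 1.0 for each, edgeR diffSpliceDGE with Simes and Benjamini-Hochberg adjustment). None had an unadjusted Simes p under 0.05, the lowest being 0.115 for DGCR6, and the gene-level F test gave adjusted p-values of 0.718 to 0.962. PRODH was spread over PRODH-215 with 30.0% of its reads, PRODH-205 with 27.1% and PRODH-212 with 26.8%, and no other transcript passed 3.49%. These 3 together made up 83.5%, 83.3%, 84.8% and 83.8% of PRODH reads in the 4 libraries with HCC827, which carry the same HCC827 RNA. Shares of transcripts rest on counts estimated by the program Salmon. Its settings for reads that match several transcripts are not given in the sources used here.

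A large minority of PRODH reads was assigned to transcripts annotated with a retained intron. Their share was 37.2%, 37.9%, 38.1% and 36.1% from 75:25 to 0:100, the last with a Wilson interval of 34.0% to 38.3%. The 4 intervals overlapped, but these libraries carry the same HCC827 RNA, so their agreement follows from the mixing. In pure NCI-H1975 only 5 PRODH reads were available. Unlike PRODH-205 and PRODH-215, PRODH-212 keeps an intron of 901 bases (18921424 to 18922324), and the 3 also differ at their 5′ ends. The sequences show the minus strand from 18922339 onward, with the exon in lower case. Capitals mark the first bases of the next exon (18921409 to 18921423) in the spliced form and of the kept intron (18922310 to 18922324) in PRODH-212.
PRODH-215 junction, spliced: cctgggagtgtctggCACCATGGACCTGCT
PRODH-212 retained intron: cctgggagtgtctggGTGAGAGCAGCCCCC

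ALDH18A1 has 2 protein forms that differ at 1 splice donor, and the shorter is known as the form inhibited by ornithine. The sequences below run on the minus strand of chromosome 10 from 95633508, cross the junction and end at 95633038. Capitals mark the 6 bases (95633491 to 95633496) that ALDH18A1-202 has and ALDH18A1-201 lacks.
ALDH18A1-202: gacctgcaggggGTAAATgttattagtgtt
ALDH18A1-201: gacctgcagggggttattagtgtt
The longer form dominated in both lines. ALDH18A1-202 took 93.7%, 92.7%, 94.1%, 87.7% and 95.3% of the gene's reads from 100:0 to 0:100, with overlapping Wilson intervals (80.7% to 92.4% in the 25:75 library, the lowest). Over all libraries, ALDH18A1-201 had 51 of 702 reads, or 7.26% (5.57% to 9.43%). The 2 forms differ by so few bases that assignment of error-prone reads is uncertain.

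Reads of ALDH4A1 were split mostly between ALDH4A1-201 and ALDH4A1-202, each with 42.9% to 50.5% in every library, and ALDH4A1-206 had 6.31% overall. Those of PYCR1 were spread over 5 protein-coding transcripts at 17.1% to 22.3% each overall. The share of PYCR1-201 was 14.7%, 14.7%, 16.6%, 19.0% and 20.0% from 100:0 to 0:100, a drift that the usage test did not call. PYCR3 had 47.1% of its reads on PYCR3-201 and 48.9% on PYCR3-207.

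The inner libraries show where PRODH lay between the pure lines. On the scaled CPM scale, with pure NCI-H1975 at 0% and pure HCC827 at 100%, PRODH stood at 26.3% ± 1.11 (SD from counting error) in the 75:25 library, 42.9% ± 1.59 in 50:50 and 63.4% ± 2.29 in 25:75. DGCR6-207 stood close by, at 27.5% ± 1.89, 43.9% ± 2.62 and 60.1% ± 3.56. The medians over the 904 genes at least 4-fold apart between the lines and with at least 100 reads were 28.4%, 48.7% and 72.6%. PRODH was thus below the median in all 3 inner libraries, with 42.4%, 29.6% and 24.6% of those genes lower still. With library totals alone, PRODH stood at 32.2%, 49.6% and 67.8% and the medians at 34.3%, 56.1% and 77.9%.

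The 5 gene lists below place these genes among the wider pathway. Of their 44 genes, 34 had enough reads to test, and 15 passed (4 higher and 11 lower with HCC827), a share near the 45.8% of all genes tested, with a median slope of -0.23 against -0.03 over all genes tested. Of the 6 other enzymes of proline and P5C, 4 could be tested and 2 passed. PRODH2, which oxidises hydroxyproline, had no read in any library, a count that allows up to 3 reads in each.

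OAT, the mitochondrial aminotransferase that makes P5C from ornithine, stood at 204, 212, 226, 215 and 208 CPM. It did not pass the test (slope 0.04 ± 0.12, adjusted p = 0.821, edgeR quasi-likelihood test), and with library totals alone its slope was -0.37 (adjusted p = 0.0193). PEPD, which frees proline from dipeptides, stood at 24.8, 30.8, 30.3, 38.1 and 36.4 CPM. The 2 HCC827-rich libraries were highest, and the gene passed narrowly (slope 0.56 ± 0.21, adjusted p = 0.0402, same test). That call held in 1 of 10 alternatives, and with library totals alone the slope was 0.15 (adjusted p = 0.551).

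The list for proline hydroxylation in collagen had the lowest median slope, -0.60. Of its 8 tested genes, 4 passed, P3H3 among them, all as lower with HCC827, where 45.8% of all genes passed and 22.3% as lower. P3H2, a collagen prolyl 3-hydroxylase, fell at every step through 74.8, 58.4, 48.5, 25.2 and 8.18 CPM (slope -2.52 ± 0.33, adjusted p = 6.6e-05, edgeR quasi-likelihood test). P4HA1, a catalytic subunit of prolyl 4-hydroxylase, fell through 37.4, 33.6, 26.2, 18.2 and 8.92 CPM (slope -1.79 ± 0.28, adjusted p = 2.43e-04, same test). P3H3, of the 3-hydroxylase family, had 75, 57, 46, 28 and 6 reads. It fell through 22.1, 13.2, 11.8, 9.79 and 2.23 CPM, with a slope of -2.22 ± 0.43. It reached 10 reads only in libraries with NCI-H1975, so the slope is given with no test. Its place in the counts of genes passed as lower is therefore not read as a result. P3H2 and P4HA1 kept their calls under every alternative that gave a value. The other genes of this list are named after their values were seen. P4HA2 also passed (slope -0.79 ± 0.23, adjusted p = 0.0143, same test), but not with DESeq2's Wald test or without the 100:0 library. P4HB, the shared subunit that is also protein disulfide isomerase, did not pass (slope 0.21 ± 0.11, adjusted p = 0.151, same test), nor did P3H1, P3H4 and CRTAP.

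Of the 2 collagen genes among the markers, COL3A1 had at most 1 read, and COL1A1 had 532, 508, 351, 163 and 19 reads from 100:0 to 0:100. It is 1 of the 6 markers of other cells, of which only COL1A1 and CD68 reached 10 reads in any library and PTPRC and CD3E were at 0 throughout. The summed level of the 6 was 214, 183, 168, 151 and 102 CPM, and its part in the result was not tested.

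Among genes that link proline to glutamate and ornithine, 4 of 8 tested passed, 2 in each direction, near the 45.8% of all genes. Those named here were chosen after their values were seen. The mitochondrial arginase ARG2 was lower with HCC827 (slope -0.77 ± 0.20, adjusted p = 0.00658, edgeR quasi-likelihood test). The mitochondrial aspartate aminotransferase GOT2 (slope 0.61 ± 0.12, adjusted p = 0.00115, same test) and glutamine synthetase GLUL (slope 0.49 ± 0.19, adjusted p = 0.0478, same test) were higher. ARG2 lost its call without the 0:100 library (adjusted p = 0.134), GOT2 with library totals (0.162), and GLUL in 7 of 10 alternatives. Of 4 tested carriers of proline, only SLC38A2, also named after its values were seen, passed, falling from 174 to 98.2 CPM (slope -0.83 ± 0.13, adjusted p = 2.78e-04, same test), and it kept its call in all 10 alternatives.

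PRODH is known as a p53 target. Of the 10 other p53 targets tested, 3 passed as lower with HCC827 and 1 as higher, no larger a share than the 45.8% of all genes, with a median slope of -0.57. CDKN1A, the cell cycle inhibitor p21, fell through 101, 69.3, 65.4, 48.6 and 25.7 CPM (slope -1.67 ± 0.21, adjusted p = 4.1e-05, edgeR quasi-likelihood test). TP53I3, a quinone oxidoreductase, fell through 44.5, 40.8, 30.3, 27.6 and 18.2 CPM (slope -1.21 ± 0.21, adjusted p = 5.09e-04, same test). Both fell at every step and kept their calls in all alternatives. MDM2 and GDF15 are named after their values were seen. MDM2, the ubiquitin ligase of p53, was lower (slope -0.72 ± 0.21, adjusted p = 0.0120, same test) except with DESeq2's Wald test and without the 0:100 library. The stress-induced cytokine GDF15 was higher (slope 0.59 ± 0.13, adjusted p = 0.00244, same test) but not with library totals (adjusted p = 0.252).

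With library totals in place of TMM, no gene of the 5 lists passed as higher, and 2, 6, 4, 1 and 5 passed as lower in the order in which the lists are described here.

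**Figure D4:**
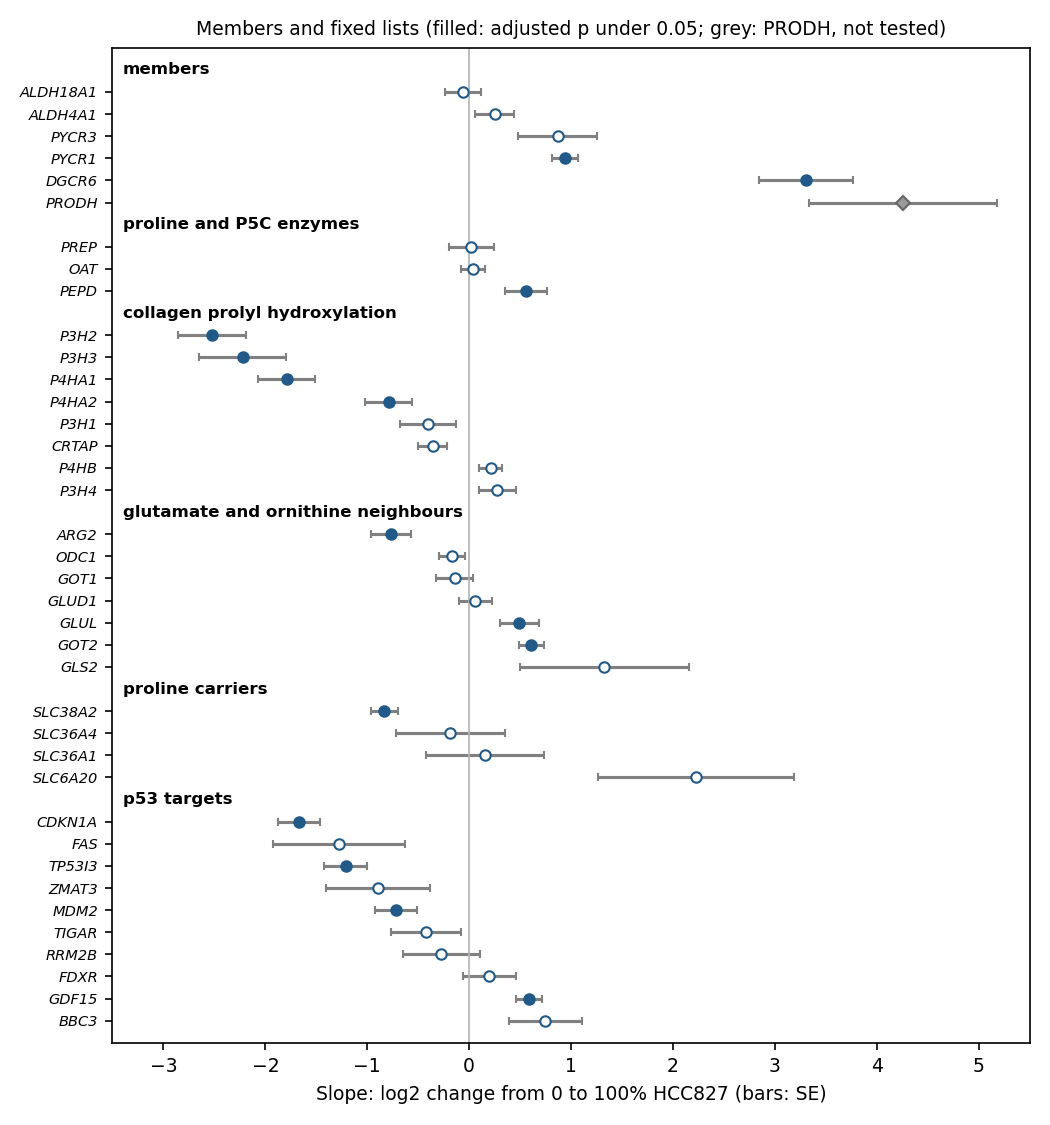
Fitted log2 slope from pure NCI-H1975 to pure HCC827 for tested genes of the 5 lists and for the 6 genes described, with SE as bars. Filled points have an adjusted p under 0.05, and PRODH, in grey, was not tested. P3H3 reached 10 reads only in libraries with NCI-H1975, so its filled point is not read as a result. PRODH at 4.26 and DGCR6 at 3.30 lie above every list gene shown, and P3H2 at -2.52 is the lowest.

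Within 1 Mb on either side of PRODH, 17 other genes could be tested, of which 3 passed as higher, ENSG00000284294 among them, and 2 as lower, a smaller share than the 45.8% of all genes, with a median slope of 0.30. Of the genes within 100 kb, DGCR5 (slope 0.33 ± 0.52, adjusted p = 0.636, edgeR quasi-likelihood test) and DGCR2 (slope 0.24 ± 0.18, adjusted p = 0.291, same test) did not pass. The long noncoding RNA gene ENSG00000284294, at 18936411 to 18947741 on the plus strand, shares 143 exon bases with the 5′ end of PRODH. It had 0, 13, 11, 21 and 27 reads, or 0, 3.01, 2.82, 7.34 and 10.0 CPM. It was at 0 in pure NCI-H1975 and highest in pure HCC827, with a slope of 3.50 ± 0.77. It passed the read filter through the libraries with HCC827 alone, so the slope is given with no test. Its place among the 3 counted as higher is therefore not read as a result. Its exons and those of PRODH lie on opposite strands, so the limit given for DGCR6-207 holds for it too.

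The other genes called within 1 Mb are named after their values were seen. SLC25A1, the mitochondrial citrate carrier, was higher with HCC827 (slope 1.12 ± 0.17, adjusted p = 2.01e-04, edgeR quasi-likelihood test), as was PI4KAP1, a copy of PI4KA whose reads could be shared with it (slope 1.31 ± 0.31, adjusted p = 0.0043, same test). The histone chaperone HIRA (slope -0.90 ± 0.31, adjusted p = 0.0290, same test) and UFD1, of protein degradation (slope -0.96 ± 0.23, adjusted p = 0.00422, same test), were lower. The calls of SLC25A1 and PI4KAP1 held in 10 of 10 alternatives, that of HIRA in 7 and that of UFD1 in 8.

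**Figure D5:**
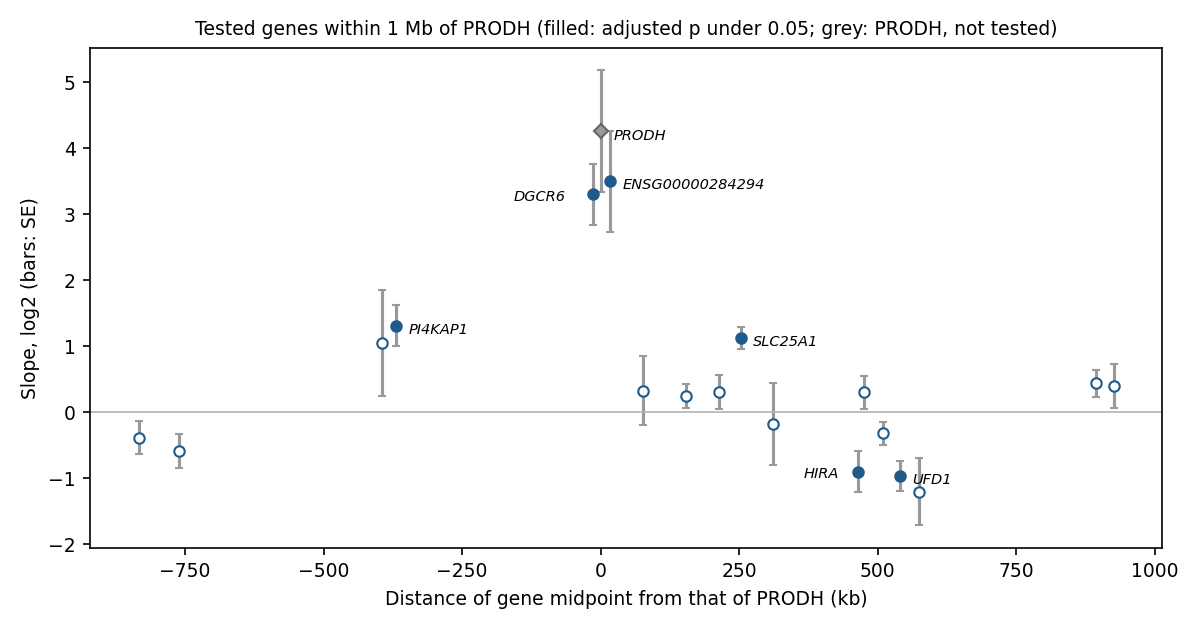
Fitted log2 slope for genes tested within 1 Mb of PRODH, against distance from the middle of PRODH in kb. Bars are SE, filled points have an adjusted p under 0.05, and PRODH, not tested, is in grey. PRODH, DGCR6 and ENSG00000284294 stand together at 3.30 to 4.26, and every other gene lies between -1.20 and 1.31. ENSG00000284294 passed the read filter through libraries with HCC827 alone, so its filled point is not read as a result.

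The genes whose profile over the 5 libraries was most like that of PRODH were not enzymes of proline. Each gene with at least 200 reads was divided by its own sum over the 5 libraries, and the Euclidean distance to PRODH was taken over 8838 such genes. The nearest were NAPSA, an aspartic protease of lung epithelium (distance 0.00997), the water channel AQP5 (0.0106), the mucin MUC20 (0.0131), the folate receptor FOLR1 (0.0162) and the mucin MUC5B (0.0199). NAPSA stood at 2.06, 64.4, 113, 159 and 257 CPM. The profile of DGCR6 ranked 11 (0.0314), while PYCR1 ranked 1241, ALDH4A1 3520 and ALDH18A1 4756, and PYCR3 had too few reads. The same 5 genes led with library totals, but only 1 of them when likeness was the Pearson correlation of log2 values. In pure NCI-H1975, NAPSA had 7 reads, MUC20 4, MUC5B 2, and AQP5 and FOLR1 0. Any gene nearly absent from NCI-H1975 takes a profile of this kind from the mixing. All points share the same 5 libraries, and the ranking is a description.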

How the data were processed

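Per the submitters' processing notes, the authors used minimap2 2.24, Salmon 1.9.0 and GRCh38, and deposited estimated counts per transcript for each library, with the transcript length as another column. Annotation release, strand setting and read filters are not given in the sources used here. Here 2 values that were not whole were rounded, 161 repeated identifiers were summed, and 224076 of 227911 identifiers were matched to GENCODE 44; the 3675 unmatched ENST identifiers and 160 others (spike-ins among them) stayed in the library totals only. Transcripts were summed per gene. Of the 58 member transcripts, 57 had the GENCODE length, and PRODH-203 did not.

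Slopes on the HCC827 mass fraction were fitted over all 5 libraries with edgeR 4.0.16 (R 4.3.3, TMM scaling, genes with at least 10 reads in at least 2 libraries, quasi-likelihood test, Benjamini-Hochberg adjusted p under 0.05). Isoform usage was tested with diffSpliceDGE. DESeq2 1.42.0 served as an alternative. The procedures were tested on simulated data. The slope of PRODH was not tested. Ratios of the pure libraries carry exact conditional 95% intervals, with libraries under 3 reads set to 3, and shares carry Wilson intervals. As the PCR reads have no molecular identifiers, all intervals and floors cover counting error only. Identity between copies was taken from BLAST 2.17.0. Sequences were read from the hg38 genome.

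Genes named are the 6 members, list genes called with at least a 2-fold ratio of the pure libraries, PRODH2, OAT, PEPD, tested genes within 100 kb of PRODH, DGCR6L, PRODHLP, and the 5 genes most like PRODH; others are said to be named after their values were seen. Some list genes are counted but not reported here by name. The members and lists were chosen with earlier results of these data known. Alternatives changed the scaling, read filter, test, transcripts summed and libraries used.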

Additional observations from a re-analysis of the deposited data

How the results depend on the processing

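Of the recomputed counts, positions and values of the 6 genes, 155 kept their direction and their side of the threshold or moved by less than their error, 12 moved by more, 2 reversed, 3 passed the threshold or rose past 1.5 times the count only under the alternative, and 1 count fell past 1.5 times. Among 52 list, neighbour and copy genes, 22 changed their call and 19 the sign of their slope under at least 1 alternative. The number of genes called along the series was 6175, and 4067 to 5860 with 1 library left out, the lowest without the 0:100 library. With 1 library left out, the 15 calls among the 5 lists, P3H3 counted in, became 10 to 16. The 5 calls within 1 Mb of PRODH, ENSG00000284294 counted in, became 4 to 5 in the same way. With library totals in place of TMM, 9 genes within 1 Mb were called, and ALDH4A1 turned negative in its slope (-0.157) and in its log2 ratio of the pure libraries (-0.013). The slope of PRODH ranged from 2.53 to 5.93 with 1 library left out, the lowest without the 100:0 library. Isoform usage of PRODH with at least 10 reads in every library gave no value, since pure NCI-H1975 has 5 reads. No paired analysis was possible because each mixing ratio has 1 library. Depth limits what can be said of PRODH in NCI-H1975 and of PYCR3, with 28 to 45 reads a library.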
